A study of Mus musculus with 6 samples.

Results

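Histone genes were followed in cultured mouse cortical neurons with and without FMRP, the RNA-binding protein whose loss causes fragile X syndrome. The cells came from the cerebral cortex of C57BL/6J pups on postnatal day 1 and were kept for 2 days in vitro. There were 3 wild-type (WT) libraries and 3 Fmr1-KO libraries, all from RNA with a poly(A) tail, and the deposited table gives raw read counts per gene. Astrocytes and myelin-bearing cells had been removed with magnetic beads before plating. The Fmr1-KO is carried by every cell of the animal. The study states that the 3 samples of a genotype were derived independently. The labels do not say whether libraries of 1 genotype came from separate animals, so P values measure the spread between these libraries. In bulk RNA, fewer cells of a type and less RNA per cell cannot be told apart.

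Histone genes were taken as the rows whose symbol has a histone form (the older Hist1 to Hist4, H2af, H3f3 and H1f names, or the newer short names such as H2bc4 and H4c9). This rule found 108 of the 55367 genes in the table. They were 65 replication-dependent genes, 9 replacement genes, 28 germline genes, 4 genes with a pseudogene symbol and 2 other names, sorted by symbol. GENCODE M21 annotates 2 of the 65 (H2ac14 and Hist1h2al) and 1 of the 9 (H3f3c) as pseudogenes too. A mean of 10 or more counts over the 6 libraries was reached by 19 of the 108, namely 9 replication-dependent genes, 8 replacement genes, the pseudogene H3f3a-ps1 and the antisense transcript H3f3aos. The rule does not take Macroh2a1 and Macroh2a2, whose symbols have another form, and these are given separately.

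Replication-dependent histone genes sit in clusters and are expressed during S phase, when new DNA has to be packed into nucleosomes. Their mRNAs end in a stem-loop instead of a poly(A) tail. The stem-loop binds SLBP, the U7 small nuclear ribonucleoprotein guides the cut behind it, and at the end of S phase the mRNA is degraded with the help of SLBP and UPF1. Replacement histones, such as H3.3 and H2A.Z, are made throughout the cell cycle from ordinary polyadenylated mRNAs and are the main supply of new histones in neurons, which no longer divide. Some replication-dependent genes also make polyadenylated transcripts in differentiated cells, and the H2ax gene makes both kinds of mRNA.

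The stem-loop is shown because an mRNA that ends in it has no poly(A) tail, and these libraries were made from poly(A) RNA. It was searched in GENCODE M21 transcripts (GRCm38) as a stem of 6 pairs that opens with GG around a loop of 4 bases of the form TNTN, and 176 of 21923 protein-coding genes (0.803%) held one. Among the 65 replication-dependent genes 44 did, and 26 of these had the same form. The search sees only annotated bases. Among genes without a match, H4c12 has 312 annotated bases and H2bc18 381, so a missing match need not mean a missing stem-loop. The letters are those of the mRNA sense strand with the loop in capitals. H1f2 lies on the plus strand (chr13:23739512-23739527), H4c9 on the minus strand (chr13:22040966-22040981) and H2ax on the plus strand (chr9:44335240-44335255). Each stem-loop lies in the 3′ UTR of a single-exon transcript.
H1f2: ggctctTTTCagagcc
H4c9: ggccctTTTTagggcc
H2ax: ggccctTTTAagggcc
The H1f2 form was also that of H2aw, H2bu2, H2ac6, H3c15 and H2bc6. The annotated mRNA went on for 840 bases after the stem-loop in H1f2, 330 in H4c9 and 822 in H2ax. In H2bc21 and H2bc4 no run of these letters was found, and among the 8 replacement genes with a mean of 10 or more counts only H2ax had one.

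Most replication-dependent genes were near or at 0 in these libraries. Of the 65, 14 had no count in any library, another 20 averaged above 0 and below 1, and 22 averaged from 1 to 10. A count of 0 allows up to 0.0854 to 0.0989 CPM (read counts scaled to library size, here by the library total alone) at 3 counts in a library. The genes just over the minimum were H3c15 with a mean of 11.3 counts and H2ac6 with 12.3, and those just under it were H1f3 with 7.67 and H2bc8 with 6.50. The 8 replacement genes annotated as protein-coding all passed the minimum, and the annotated pseudogene H3f3c averaged 1.33 counts. Of the 28 germline genes, which encode histones of testis and oocyte, 22 had no count and the highest mean was 4 counts.

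**Figure D1:**
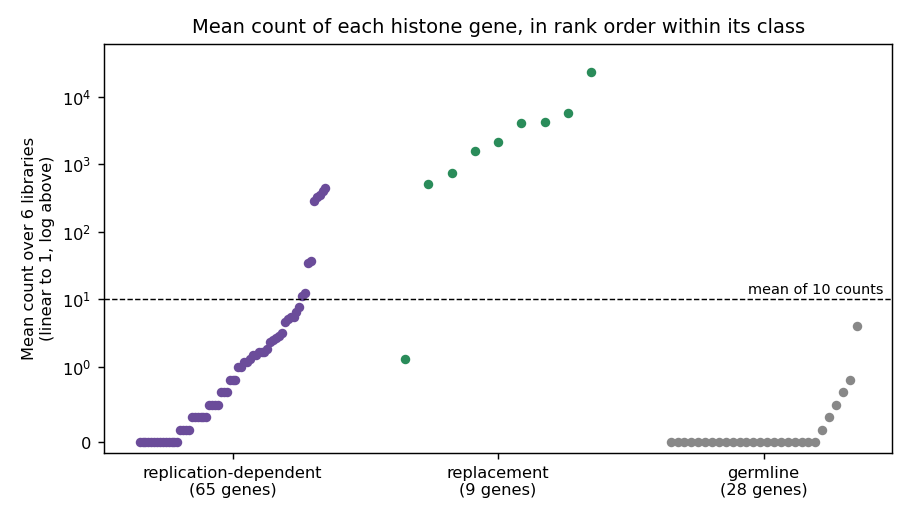
Mean count over the 6 libraries (y axis, linear to 1 and logarithmic above) for each replication-dependent, replacement and germline histone gene, ranked within its class along the x axis. Of 65 replication-dependent genes 9 lie above the dashed line at 10 counts, against 8 of 9 replacement genes (the other is annotated as a pseudogene) and 0 of 28 germline genes.

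The replication-dependent genes with a mean of 10 or more counts had longer annotated transcripts than those under it. The longest transcript had a median of 1560 bases in the 9 replication-dependent genes with 10 or more counts and 514 bases in the 56 under it. The polyadenylation signal AATAAA (this strand only) lay in the last 50 bases of a transcript in 5 of the 9 and in 8 of the 56, against 69.5% of all protein-coding genes. More than 100 bases followed the stem-loop in 7 of the 9 and in 14 of the 56. A stem-loop was found at all in 7 of the 9 and in 37 of the 56. These comparisons rest on annotated lengths, which may be incomplete, and on raw counts, which grow with length. Near-identical copies are a second difference between the sets. In 24 of the 56 genes fewer than 50% of the 100-base windows, the length of a read, were found in no other of the 108 genes, whereas this held for 1 of the 9, H3c15 with 38.4%. The counting options given in the methods do not include the one that counts reads with several matches, and featureCounts leaves such reads out by default. The part of sequence sharing in the low counts was not tested.

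**Figure D2:**
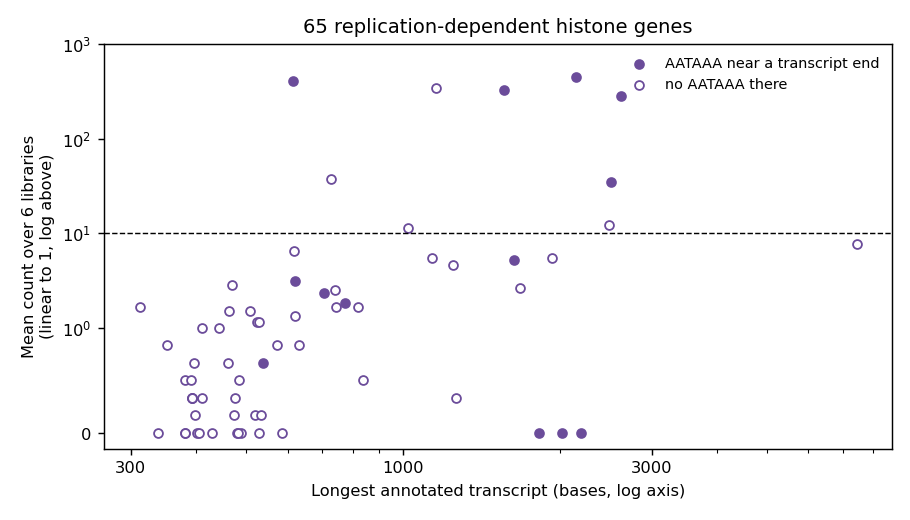
Longest annotated transcript in bases (x axis, logarithmic) against the mean count over 6 libraries (y axis, linear to 1 and logarithmic above) for the 65 replication-dependent genes. Filled points have AATAAA near a transcript end. The 9 genes above the dashed line at 10 counts have transcripts of 614 to 2620 bases, and those below it have a median of 514 bases.

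Replacement histone genes were higher in Fmr1-KO in 6 of 8 cases, with no gene lower. The test was edgeR's quasi-likelihood test over 16976 genes, a gene being called at a Benjamini-Hochberg adjusted P under 0.05. Over all genes tested 20.7% were called higher and 21.9% lower. The same 6 genes had every Fmr1-KO library above every WT library, which held for 25.4% of all genes, and none had all of them below, which held for 26.3%. The median log2 fold-change of the 8 was 0.29, against 0.01 over all genes. At an unadjusted P under 0.05, edgeR gave 7 of the 8 higher and 0 lower, and DESeq2 gave the same numbers.

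H3f3a and H3f3b encode the same protein, H3.3, which is laid down at active genes and at telomeres. H3f3b was the most abundant histone transcript. It measured 639, 613 and 663 CPM in the WT libraries and 775, 768 and 792 CPM in the Fmr1-KO libraries (log2 fold-change 0.29, SE 0.03, edgeR adjusted P = 1.43e-07). H3f3a measured 119, 117 and 118 CPM in WT and 141, 134 and 136 CPM in Fmr1-KO (log2 fold-change 0.22, SE 0.03, edgeR adjusted P = 1.66e-05). Both genes were separated between genotypes without overlap. The count ratio of H3f3b to H3f3a was 5.42 ± 0.20 (SD, n = 3) in WT and 5.69 ± 0.18 (SD, n = 3) in Fmr1-KO, with overlapping ranges. H3f3aos, antisense to H3f3a and counted by strand, measured 1.73 ± 0.24 CPM in WT and 2.07 ± 0.33 CPM in Fmr1-KO (SD, n = 3) and was not called. The pseudogene H3f3a-ps1, a near copy of H3f3a with 7 to 17 counts a library, was not called either (log2 fold-change 0.50, SE 0.38).

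H2A.Z is a replacement histone placed around transcription start sites by the SRCAP and EP400 complexes. Its genes are H2az1 and H2az2. H2az2 measured 53.7, 55.5 and 51.0 CPM in WT and 76.9, 70.2 and 74.9 CPM in Fmr1-KO (log2 fold-change 0.47, SE 0.04, edgeR adjusted P = 1.19e-08). H2az1 measured 108, 110 and 112 CPM in WT and 150, 123 and 137 CPM in Fmr1-KO (log2 fold-change 0.32, SE 0.05, edgeR adjusted P = 1.60e-05). The 3 Fmr1-KO libraries of H2az1 were spread widely, but the lowest still lay above the WT range. The count ratio of H2az1 to H2az2 was 2.06 ± 0.11 in WT and 1.85 ± 0.10 in Fmr1-KO (SD, n = 3).

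H2ax encodes the histone whose phosphorylated form marks DNA breaks. It measured 38.8, 41.6 and 39.6 CPM in WT and 60.6, 50.5 and 55.0 CPM in Fmr1-KO (log2 fold-change 0.47, SE 0.05, edgeR adjusted P = 3.50e-07). Its Fmr1-KO libraries were all higher, and by about the same factor as those of H2az2. H2aj, which encodes a replacement form of H2A, measured 13.8, 16.9 and 15.2 CPM in WT and 15.9, 14.7 and 14.6 CPM in Fmr1-KO. Its ranges overlapped (log2 fold-change -0.02, SE 0.07, edgeR adjusted P = 0.846).

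H1f0 encodes H1.0, the linker histone that builds up as cells stop dividing. It measured 153.4, 153.0 and 153.1 CPM in WT and 189, 186 and 189 CPM in Fmr1-KO (log2 fold-change 0.30, SE 0.03, edgeR adjusted P = 5.08e-08), the tightest replicates of any histone gene. The other linker histone of the class, H1f10, measured 19.2, 22.2 and 22.8 CPM in WT and 26.4, 22.8 and 23.1 CPM in Fmr1-KO. The groups overlapped and the gene missed the threshold (log2 fold-change 0.17, SE 0.07, edgeR adjusted P = 0.0517), although it passed with library totals as the only scaling (adjusted P = 0.0247).

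The macroH2A genes, which encode H2A with a large extra domain and whose symbols fall outside the rule, were also higher. Macroh2a1 rose from 190.0 ± 4.35 to 223 ± 3.95 CPM (log2 fold-change 0.23, SE 0.03, edgeR adjusted P = 2.45e-06). Macroh2a2 went from 139 ± 3.69 to 154 ± 3.97 CPM (log2 fold-change 0.15, SE 0.03, edgeR adjusted P = 0.00101). Counted with them, 8 of 10 replacement genes were called higher.

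**Figure D3:**
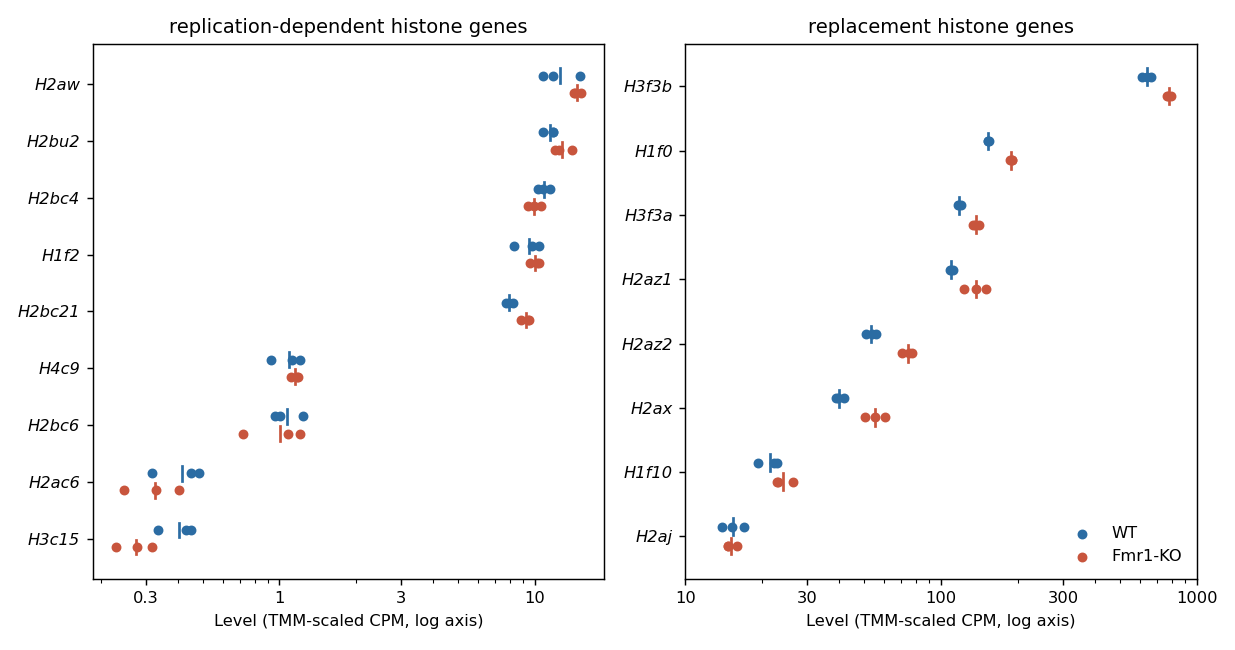
Level of each histone gene with 10 or more counts (TMM-scaled CPM, logarithmic x axis) in the 3 WT (blue) and 3 Fmr1-KO (red) libraries, with a bar at each mean. In the replacement panel 6 genes have all red points to the right of all blue points, and in the replication-dependent panel H2bc21 and H2bu2 do.

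Among the 9 replication-dependent genes, 1 was called higher and 0 lower by edgeR, and DESeq2 called 0 of either. At an unadjusted P under 0.05 edgeR gave 3 higher and 0 lower, and DESeq2 1 higher and 0 lower. Against the 20.7% and 21.9% of all genes, the share of calls was 11.1% higher and 0% lower. These 9 genes had mean counts of 11.3 to 450 and SEs of 0.08 to 0.34. The 8 replacement genes had mean counts of 504 to 23475 and SEs of 0.03 to 0.07. H2aw and H3f3a both had a log2 fold-change of 0.22, and only H3f3a was called. The part of count depth in the numbers called was not tested. The median log2 fold-change of the 9 was 0.09, with 5 above 0. All Fmr1-KO libraries lay above all WT libraries in 2 genes (H2bc21 and H2bu2) and below them in 1 (H3c15).

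The H2B genes gave the only edgeR call under the main settings. H2bc21 measured 7.74, 8.20 and 7.91 CPM in WT and 8.86, 9.54 and 9.40 CPM in Fmr1-KO (log2 fold-change 0.22, SE 0.08, edgeR adjusted P = 0.0305). The groups did not overlap. This call was lost with DESeq2 (adjusted P = 0.122), with no filter on low counts (0.0578), and without WT library 1 (0.0978), WT library 3 (0.0697), Fmr1-KO library 2 (0.0840) or Fmr1-KO library 3 (0.0861). With no filter, 1 replication-dependent gene was still called higher, which was thus a gene other than H2bc21.

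H2bu2 and H2aw are neighbours on chromosome 11. H2bu2 measured 10.8, 11.77 and 11.81 CPM in WT and 14.0, 11.99 and 12.4 CPM in Fmr1-KO (log2 fold-change 0.16, SE 0.08, edgeR adjusted P = 0.0996), so that the Fmr1-KO values began just above the highest WT value. H2bc4 measured 10.3, 11.5 and 10.8 CPM in WT and 10.5, 9.93 and 9.40 CPM in Fmr1-KO (log2 fold-change -0.13, SE 0.08, edgeR adjusted P = 0.20). H2bc6 was at 1.07 ± 0.15 CPM in WT and 1.00 ± 0.25 CPM in Fmr1-KO (SD, n = 3) and was not called. In M21, 11.2% of the H2bc6 exon bases are shared on the same strand with other genes, H1f4 (Hist1h1e) among them.

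Of the H2A genes, H2aw measured 11.8, 15.1 and 10.8 CPM in WT and 15.2, 14.34 and 14.31 CPM in Fmr1-KO. The WT libraries were spread over the range of the others (log2 fold-change 0.22, SE 0.09, edgeR adjusted P = 0.0597). Without WT library 2, the highest of its group, the adjusted P was 0.000566, and with library totals as the only scaling it was 0.0333. In M21, exons of Trim17 on the same strand cover 33.0% of the H2aw exon bases. By default featureCounts leaves out a read that matches both genes. H2ac6 had 8 to 16 counts a library and was not called (log2 fold-change -0.34, SE 0.34).

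The linker histone H1f2 measured 9.75, 10.4 and 8.33 CPM in WT and 10.4, 9.60 and 10.2 CPM in Fmr1-KO (log2 fold-change 0.09, SE 0.09, edgeR adjusted P = 0.459). The H4 gene H4c9 was at 1.09 ± 0.14 CPM in WT and 1.15 ± 0.04 CPM in Fmr1-KO (SD, n = 3), with 31 to 42 counts a library. H3c15, with 15, 11 and 15 counts in WT and 9, 7 and 11 in Fmr1-KO, had all Fmr1-KO values in CPM below those of WT, yet its log2 fold-change of -0.55 had an SE of 0.34 (edgeR adjusted P = 0.212).

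**Figure D4:**
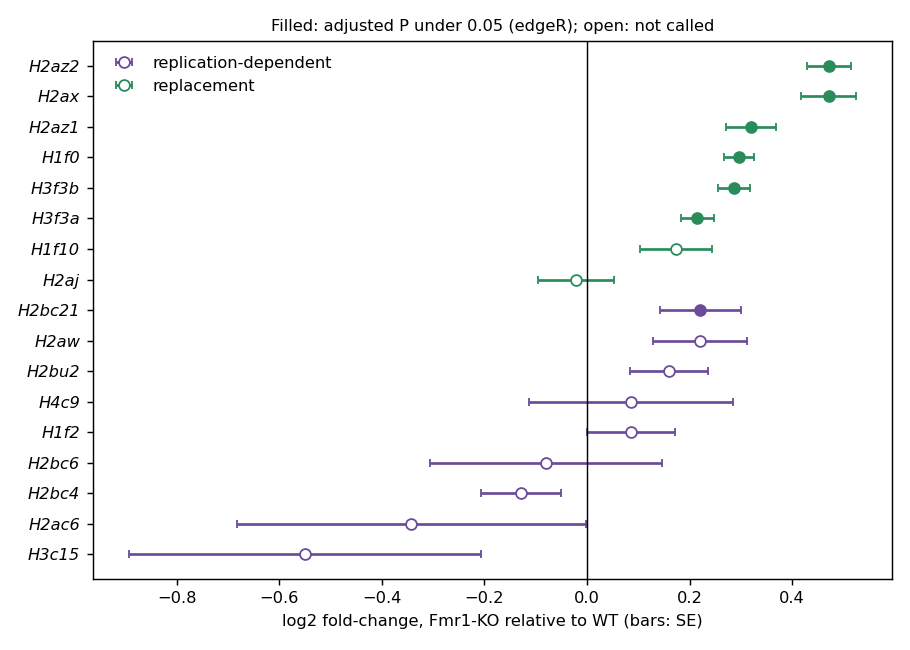
Log2 fold-change of Fmr1-KO relative to WT (x axis, bars of 1 SE) for the 17 replacement and replication-dependent genes with 10 or more counts, filled where the edgeR adjusted P is under 0.05. The 6 filled replacement genes run from 0.22 to 0.47, and the replication-dependent genes run from -0.55 to 0.22 with H2bc21 filled.

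Summed over each class, the 8 replacement genes went from 1149 ± 22.5 CPM in WT to 1409 ± 35.1 CPM in Fmr1-KO (SD, n = 3), 22.6% higher, without overlap. The 9 replication-dependent genes went from 55.3 ± 4.21 to 59.4 ± 1.96 CPM (SD, n = 3), 7.48% higher, with overlapping ranges of 52.4 to 60.1 and 57.9 to 61.6. The other 56 replication-dependent genes together held 67, 87 and 65 counts in WT and 72, 81 and 67 counts in Fmr1-KO, which is a mean of 73.0 and 73.3.

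Replication-dependent genes made up 4.45% (4.26 to 4.66), 5.06% (4.84 to 5.28) and 4.28% (4.08 to 4.48) of the histone counts of the 17 genes in the WT libraries. In the Fmr1-KO libraries the share was 4.12% (3.94 to 4.30), 4.05% (3.87 to 4.24) and 3.98% (3.81 to 4.15). The intervals are Wilson 95% intervals and cover counting error only. The share was lower in each Fmr1-KO library than in any WT library, with means of 4.60% ± 0.41 and 4.05% ± 0.07 (SD, n = 3). The gap was narrow, since the interval of WT library 3 overlapped those of all 3 Fmr1-KO libraries. It is given as a description, because the classes were compared with these results known. The summed CPM of the replication-dependent genes was itself not lower in Fmr1-KO. In the replacement sum H3f3b alone made up 638 of 1149 CPM in WT and 778 of 1409 CPM in Fmr1-KO. No share without H3f3b was computed.

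**Figure D5:**
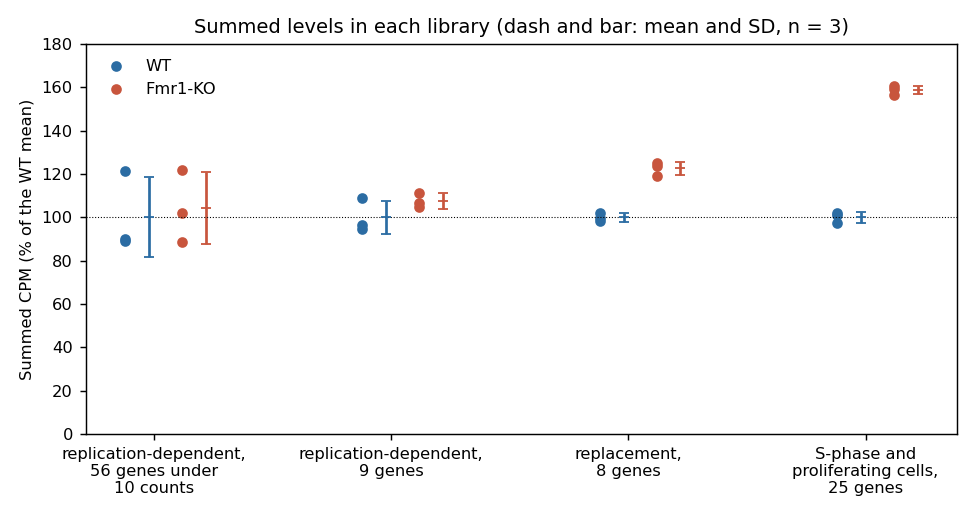
Summed CPM of each set in each library as a percentage of the WT mean (y axis from 0), with the mean and SD (n = 3) beside the points. The Fmr1-KO libraries of the 8 replacement genes and the 25 S-phase genes lie above all WT libraries, and both sets of replication-dependent genes overlap between genotypes.

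Levels of different genes were compared per kilobase of exon. H3f3b led with 214 ± 8.25 CPM per kilobase in WT, followed by H1f0 (74.5 ± 0.11) and H2az1 (61.8 ± 1.04). H3f3a (33.6 ± 0.38) and H2az2 (32.7 ± 1.39) did not differ beyond their spread, and H2ax came next (28.9 ± 1.08). The highest replication-dependent gene, H2bu2 (18.7 ± 0.94), and the replacement gene H1f10 (17.6 ± 1.60) were alike within their spread. They were followed by H2bc4 (9.41 ± 0.53) and H2aj (8.36 ± 0.84), and the remaining replication-dependent genes lay between 0.168 and 6.09 CPM per kilobase. In Fmr1-KO, H2az2 (45.3 ± 2.12) stood above H3f3a (39.0 ± 1.13).

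The promoters (RefSeq, GRCm38.p6, 250 bases before to 50 after the transcription start) differed between the classes in the letters they hold. On either strand, TATAAA was found in 56.9% of 51 replication-dependent promoters, in 1 of 8 replacement promoters and in 13.6% of all 32851. CCAAT was found in 88.2%, 62.5% and 37.4%, and the octamer ATTTGCAT in 23.5%, 12.5% and 1.74%. GGGCGG was found in 41.2%, 75% and 35.7%. These sets take in genes with few counts, the pseudogene H3f3c among them, and H2ax had no promoter entry. With a mean of 10 or more counts there were 8 replication-dependent promoters from 7 genes. H2bc6 had 2 of them, and H2bc21 and H2bc4 had no entry. TATAAA was in 3 of these 8 and in 1 of 7 replacement promoters. CCAAT was in 7 of 8 and 5 of 7, ATTTGCAT in 3 of 8 and 1 of 7, and GGGCGG in 3 of 8 and 6 of 7. None of these motifs contains another. The promoters shown are that of the most abundant replication-dependent gene per kilobase and that of the replacement gene with the highest fold-change. Capitals mark the first 3 of these motifs on either strand, and each promoter is written along its gene's strand. H2bu2 (chr11:58948661-58948960, plus) holds 2 TATAAA and 4 CCAAT matches, and H2az2 (chr11:6444394-6444693, minus) holds 4 CCAAT matches. Neither holds ATTTGCAT.
H2bu2: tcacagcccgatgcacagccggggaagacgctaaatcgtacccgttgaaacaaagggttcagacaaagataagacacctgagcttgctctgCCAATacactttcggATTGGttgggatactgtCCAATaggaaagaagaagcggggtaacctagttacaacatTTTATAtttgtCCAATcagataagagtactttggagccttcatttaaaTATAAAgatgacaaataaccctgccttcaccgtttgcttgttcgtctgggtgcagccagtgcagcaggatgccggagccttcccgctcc
H2az2: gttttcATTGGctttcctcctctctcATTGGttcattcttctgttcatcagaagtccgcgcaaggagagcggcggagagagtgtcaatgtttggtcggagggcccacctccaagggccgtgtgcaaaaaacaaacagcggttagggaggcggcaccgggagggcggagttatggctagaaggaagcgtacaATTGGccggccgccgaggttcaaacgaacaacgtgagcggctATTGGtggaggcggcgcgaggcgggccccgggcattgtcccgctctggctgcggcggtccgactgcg

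Next come the transcripts of proteins that act on histones and their mRNA, to be read against the 20.7% of all genes called higher and the 21.9% called lower. Of 18 genes for cutting the 3′ end, 3 were higher and 3 lower (16.7% each, median log2 fold-change 0.06), which is near the share over all genes. The number lower was 1 without WT library 2, without Fmr1-KO library 1 or without Fmr1-KO library 3, and with library totals as the only scaling. Slbp, the stem-loop binding protein, rose from 29.0 to 39.1 CPM (log2 fold-change 0.43, SE 0.05). Casp8ap2, which encodes FLASH, rose from 33.4 to 47.8 CPM (0.52, SE 0.09). Lsm11, a U7-specific subunit, fell from 54.4 to 30.6 CPM (-0.83, SE 0.05), whereas its partner Lsm10 was at 9.64 and 10.1 CPM and was not called. Snrpe was higher (0.17), and Cpsf2 (-0.09) and Sympk (-0.09) of the cleavage complex were slightly lower. Of 17 genes for histone mRNA decay 7 were higher (41.2%, against 20.7% of all genes) and 0 lower (median 0.08). At an unadjusted P under 0.05 edgeR gave 8 higher and 0 lower, and DESeq2 called 5 higher and 0 lower. The genes called by edgeR included Slbp, the uridylyltransferase Tut4 (0.34, SE 0.05), Lsm5 (0.24) and the exonuclease Eri1 (0.16). Upf1 was at 104 and 106 CPM and was not called. Slbp stands in both lists.

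Of 10 genes for histone gene transcription, Casp8ap2 again included, 8 were higher (80%, against 20.7% of all genes) and 1 lower (median 0.45). E2f1 rose from 17.1 to 26.7 CPM (log2 fold-change 0.65, SE 0.06), Pou2f1, which binds the octamer, from 63.1 to 95.1 CPM (0.59, SE 0.04), and Npat, the coactivator at histone clusters, from 42.4 to 50.6 CPM (0.25, SE 0.04). Yy1 was lower (-0.10), a call lost without WT library 1 or 2 or Fmr1-KO library 1 and with library totals as the only scaling, and Hinfp was not called.

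Of 17 genes for deposition coupled to replication 12 were higher (70.6%, against 20.7% of all genes) and 0 lower (median 0.21), as with DESeq2, and at an unadjusted P under 0.05 edgeR gave 13 higher and 0 lower. They included Mcm2 (log2 fold-change 0.65, SE 0.04), Mms22l (0.84, SE 0.06), the CAF-1 subunit Chaf1b (0.59, SE 0.05), the acetyltransferase Hat1 (0.57, SE 0.04) and Nasp (0.30, SE 0.03). Of 19 genes for deposition outside replication 6 were higher and 5 lower (31.6% and 26.3%, against 20.7% and 21.9% of all genes, median 0.07). The difference between these lists was not tested. Atrx (0.29, SE 0.09), Dek (0.41, SE 0.04) and Anp32e (0.24, SE 0.03), which removes H2A.Z, were higher, and Hira (-0.17, SE 0.05), Nap1l3 (-0.37, SE 0.06) and Nap1l5 (-0.41, SE 0.04) were lower. The ranges of Atrx overlapped between genotypes (228 to 314 CPM in WT, 284 to 371 CPM in Fmr1-KO). Cenpa, the centromeric H3, went from 22.2 to 33.1 CPM (0.58, SE 0.06), and all 5 genes of the centromeric list were higher, among them the loading factor Oip5 (0.61, SE 0.12).

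Genes of S phase and dividing cells were higher in Fmr1-KO. All 25 of that list were called higher (median log2 fold-change 0.63), and their summed level ran from 1232 to 1290 CPM in WT and from 1985 to 2032 CPM in Fmr1-KO. Mki67 rose from 80.1 to 170.3 CPM (log2 fold-change 1.09, SE 0.11), Cenpf from 29.2 to 59.8 CPM (1.03, SE 0.11), Top2a from 172 to 311 CPM (0.86, SE 0.03) and Pcna from 85.7 to 114 CPM (0.42, SE 0.04). The S-phase list shares Mcm2 with the deposition list, and several others of the genes named above are cell-cycle regulated, so these lists are not independent. Markers of other cells follow, with the same 20.7% higher and 21.9% lower over all genes beside them. Neural progenitor markers had 5 of 10 higher and 0 lower with edgeR, also at an unadjusted P under 0.05, and with DESeq2 (2499 to 2526 CPM in WT, 2851 to 2923 in Fmr1-KO). Eomes, of intermediate progenitors, rose from 10.5 to 72.8 CPM (log2 fold-change 2.79, SE 0.09). Pan-neuronal markers had 10 of 12 lower and 2 higher (5338 to 5481 CPM, 4501 to 4709), with Tubb3 at 1094 and 899 CPM and Map2 at 1185 and 1097 CPM. The number of pan-neuronal markers higher was 1 without WT library 1 or 3 or Fmr1-KO library 3. Of 9 microglial markers 7 were lower (178 to 198 CPM, 109 to 120), and all 8 of the oligodendrocyte lineage were lower (1884 to 2046 CPM, 1075 to 1159). Astrocyte markers had 5 of 9 lower and 2 higher. Their summed levels were 5522 to 5648 CPM in WT and 4857 to 5268 in Fmr1-KO, above those of the 12 pan-neuronal markers. Gfap, at 2649 and 2297 CPM, was above Tubb3 and Map2. The bead-depleted cultures thus still held much astrocyte RNA, though sums of different genes do not give cell numbers. Endothelial and mural markers had 4 of 7 tested higher and 2 lower, or 1 lower without WT library 1 (247 to 272 CPM, 411 to 430). Excitatory markers had 5 of 8 higher and 3 lower (600.2 to 611 CPM, 591 to 622), and interneuron markers had 4 of 9 higher and 5 lower (755 to 787 CPM, 788 to 866). Erythroid markers were at 1.90 to 2.46 CPM in WT and 1.11 to 1.52 in Fmr1-KO, with 2 of 2 tested lower by edgeR and 0 by DESeq2. It was 1 of 2 without WT library 1 or 3 or Fmr1-KO library 2 or 3. No marker list had a sum of 0 in any library. The part of these markers in the histone levels was not tested.

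Other RNAs without a poly(A) tail were also scarce. Of 27 such names 24 were in the table, 10 of these had no count in any library, and their summed level was 1.11 to 1.63 CPM in WT and 1.01 to 2.06 CPM in Fmr1-KO. Only 2 could be tested. Rn7sk, the RNA of the 7SK particle, was called higher by edgeR (0.28 and 0.57 CPM, log2 fold-change 1.01, SE 0.37), whereas DESeq2 called 0 of the list. The low counts of the replication-dependent genes stand beside this, and no total-RNA library was analysed here. The part of the missing tail, of transcript length or of sequence sharing in the low counts of either set was not tested.

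Depth was alike in all libraries, with 30348556 to 35126207 counts, a ratio of 1.16 between the highest and lowest. Replicates differed by more than counting noise in each pair within a genotype (chi-square per degree of freedom 2.33 to 3.65 in WT and 2.24 to 3.87 in Fmr1-KO). Fmr1 itself measured 118, 112 and 110 CPM in WT and 54.2, 61.4 and 56.7 CPM in Fmr1-KO (log2 fold-change -0.98, SE 0.04), which goes with the genotype labels.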

How the data were processed

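RNA from 3 WT and 3 Fmr1-KO cultures was read as single-end 100-base reads from stranded poly(A) libraries. Per the labels and the study's methods, the authors aligned reads to GRCm38.p6 with STAR 2.7.6a and summed exon reads by gene name, on the reverse strand, with featureCounts (Subread 2.0.1). For the counting the methods name later GENCODE releases than M21, from which the transcript lengths, exon overlaps and per-kilobase levels given here were taken. The authors deposited raw counts, not normalized. The submitters' notes also name DESeq2 1.22.1, whose results were not used. Of 55367 genes 31650 had a count and 0 rows lacked a name. Low-count genes were removed with filterByExpr, leaving 16976, and counts were scaled by TMM and tested with edgeR 4.0.16 (R 4.3.3, glmQLFit and glmQLFTest) with Benjamini-Hochberg adjustment. SE is the log2 fold-change divided by the square root of F. CPM values are TMM-scaled. The fit was tested on simulated data.

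Members, classes and gene lists were chosen with earlier results of these data known. Genes were named by rule: Fmr1, all replacement genes and the 8 most abundant replication-dependent genes with 10 or more counts, called genes without overlap, linker genes, the top 3 called genes of the lists, and factors known to act on histone mRNA. H3c15, H3f3a-ps1, H3f3aos, Macroh2a1, Macroh2a2 and further list genes were named after their values were seen. Of the genes the rule names, most from the cell type marker lists are given only in their sums, and 1 other is not reported here. The table uses newer symbols. All 108 were found in GENCODE M21 through RefSeq synonyms, and 14 of 19 genes with a mean of 10 or more counts had a RefSeq promoter. The same replicate numbers were checked for pairing: correlations of deviations were -0.03, 0.03 and -0.01 over the 16976 genes. A correlation over all genes does not test for an effect shared by fewer genes. Within each genotype, the pairs that held library 2 differed most. Their chi-square per degree of freedom was 3.02 and 3.65 in WT, against 2.33 for the other pair. In Fmr1-KO it was 3.87 and 3.74, against 2.24. Alternatives were DESeq2 1.42.0, RLE, upper-quartile or no scaling factors, other filters, a replicate block, a minimum fold of 1.2, and leaving out each library.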

Additional observations from a re-analysis of the deposited data

How the results depend on the processing

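No replacement gene was called lower under any alternative, and the number higher was 6 or 7 of 8 in all but one, the exception being the test against a minimum fold of 1.2, which left 2. With the macroH2A genes, a choice made after seeing the data, it was 8 of 10. Over all genes the minimum fold left 1340 lower and 883 higher. H1f10 was the seventh gene, called with upper-quartile scaling (adjusted P = 0.0415), library totals (0.0247), no filter (0.0246) and without WT library 2 or 3 or Fmr1-KO library 2 or 3. The number of replication-dependent genes higher was 0 with DESeq2 and with the minimum fold and 2 with upper-quartile scaling and with library totals, and it ran from 0 to 2 when libraries were left out. It was 0 without WT library 1 or 3 or Fmr1-KO library 2 or 3 and 2 without WT library 2. Their median log2 fold-change was 0.16 with the stricter filter and ran from -0.014 to 0.11 when libraries were left out, the lowest without WT library 3. The replication-dependent share was 8.77% in WT and 7.68% in Fmr1-KO per kilobase, and 1.75% and 1.54% without the 3 most abundant genes. Leaving out libraries moved the log2 fold-change of H2aj from -0.091 to 0.054, of H2bc6 from -0.24 to 0.10, of H4c9 from -0.014 to 0.17 and of H1f2 from -0.00063 to 0.15. With library totals H2aj was at 0.0065. Of 1021 single-gene values under alternatives, 968 kept direction and side of the threshold. The cause of these changes was not tested.

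With the replicate number as a block, although the correlations showed no pairing over all genes, 2 replication-dependent genes and 6 replacement genes were higher. With at most 42 counts in any library, H4c9, H2bc6, H2ac6 and H3c15 have wide errors, and the 56 genes under 10 counts could not be compared singly.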
